A study of Arabidopsis thaliana with 6 samples.

Results

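The 10 genes described here encode the transcriptional regulators of flavonoid and anthocyanin synthesis in Arabidopsis thaliana, and they were picked by gene identifier from the 28775 genes counted in shoots of the myc2 mutant and of the wild-type accession Col-0. They are PAP1, PAP2, TT8, GL3, EGL3, TTG1, MYBL2, MYB11, MYB12 and MYB111. Poly(A) RNA came from above-ground tissue of plants harvested at an age of 2 weeks, kept at 22 °C in days of 16 h light and nights of 8 h, in 3 myc2 libraries and 3 Col-0 libraries, and the labels name no other treatment. MYC2 is a basic helix-loop-helix (bHLH) factor of the jasmonate pathway, and the question here is how these regulators stand in its mutant. No source used here names the allele, and MYC2 transcript was reduced but not absent, at 69.0, 73.5 and 71.0 CPM (counts scaled to library size) in the myc2 libraries, against 205, 197 and 175 CPM in the Col-0 libraries, or 37.0% of the Col-0 level.

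Anthocyanins are switched on by a complex of 3 kinds of protein. An R2R3-MYB factor (PAP1 or PAP2) recognizes the target promoter, a bHLH factor (TT8, GL3 or EGL3) pairs with it, and the WD40-repeat protein TTG1 holds them together. MYBL2, a short MYB protein, competes for the bHLH partner and represses the pathway. Flavonols, the colourless branch made from the same precursors, are controlled by another MYB group, MYB11, MYB12 and MYB111, which act without a bHLH partner. The complexes with GL3 and EGL3 also start leaf hairs (trichomes). JAZ proteins, the repressors of jasmonate signalling, bind the same bHLH and MYB factors, so the pathway is known as one of the outputs of jasmonate.

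Totals lay between 25439397 and 26597891 counts in the myc2 libraries and between 21165967 and 30604815 in the Col-0 libraries, so that 1 read was worth 0.0344 to 0.0482 CPM. The names in the file headers begin with a prefix that is taken here as the sequencing run. All myc2 libraries share a prefix, Col-0 replicates 1 and 2 share another, and Col-0 replicate 3 has still another. Run and genotype thus cannot be told apart. Col-0 replicate 3 differed from replicates 1 and 2 by a chi-square of 17.8 and 14.5 per degree of freedom. Between Col-0 replicates 1 and 2 the value was 4.17. Of the 10 regulators, PAP1 had the largest log2 difference of replicate 3 from the other Col-0 libraries (−0.78). Of 4 shoot markers all were abundant, and their summed level was 26900 to 28100 CPM in myc2 and 28300 to 34600 CPM in Col-0. RBCS1A and CA1 were lower in myc2 (log2 fold change −0.24 and −0.2, edgeR adjusted p = 0.029 and 0.0247), against 18.7% of all tested genes. CAB1 and GLK1 did not pass the same test. Root markers summed to 459 to 475 CPM in myc2 and 224 to 251 CPM in Col-0, nearly all of it the beta-glucosidase gene PYK10, while the root hair gene RHD6 had 0 reads in every library. Flower markers summed to 1.41 to 2.20 CPM in myc2 and 1.54 to 2.13 CPM in Col-0, and seed markers to at most 0.0366 CPM in myc2 and 0.0964 CPM in Col-0. The part of these differences in the results was not tested. The study calls its replicates biological, without saying whether they were separate cultures, so p-values cover the spread among these libraries, of which a share may be technical.

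All 10 regulators had enough reads to be tested, and 8 changed in myc2 at an adjusted p under 0.05 (edgeR quasi-likelihood test, Benjamini-Hochberg over 18961 genes). MYB111, PAP2 and TTG1 were higher, and PAP1, TT8, GL3, EGL3 and MYB12 were lower. MYBL2 and MYB11 did not pass. The background was high, since 36.3% of all tested genes changed, 17.6% higher and 18.7% lower. A change of at least 2-fold was seen in 6 of the 10 regulators and in 6.55% of all tested genes. The myc2 and Col-0 libraries did not overlap for 8 of the 10, against 49.7% of all tested genes. Of these 8, 3 lay higher in every myc2 library, against 25.4% of all tested genes, and 5 lower, against 24.3%. The median log2 fold change of the 10 was −0.30, beside 0.01 over all tested genes. Shoots are a mixture of cells, and fewer cells expressing a gene cannot be told apart from less RNA per cell.

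**Figure D1:**
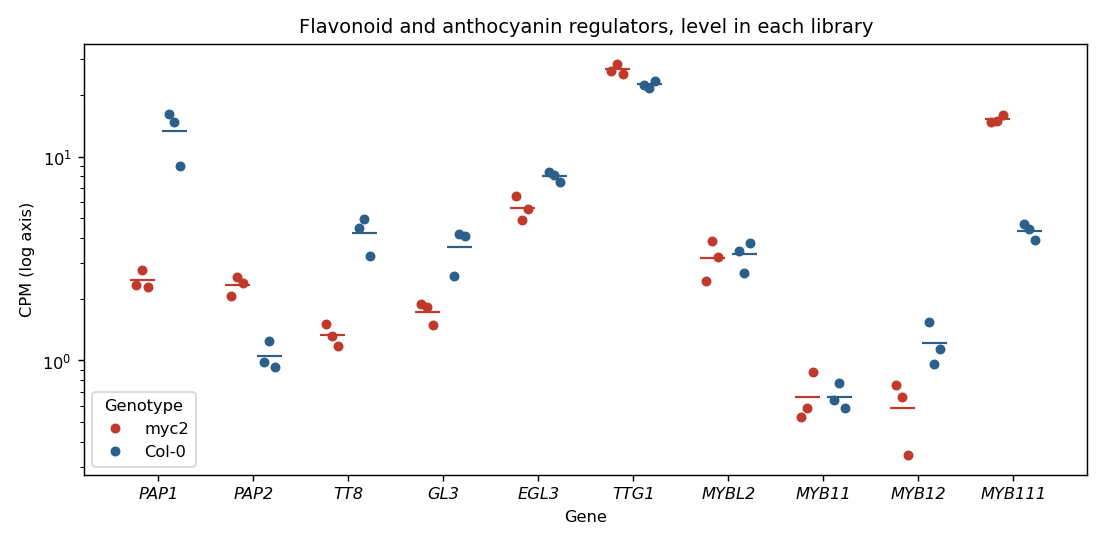
Level of each regulator in CPM on a log axis, with 1 point per library, myc2 in red left of Col-0 in blue, and a line at each genotype mean. MYB111 and PAP2 lie higher in every myc2 library than in any Col-0 library, PAP1 and TT8 lie lower, and MYBL2 and MYB11 overlap.

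The sequences just upstream of 4 regulators are shown because the genes form 2 pairs whose members moved in opposite directions, PAP1 with PAP2 and MYB12 with MYB111. Each is the 250 bases before the annotated gene start (RefSeq annotation of TAIR10.1), written 5′ to 3′ on the strand of the gene. Capitals mark CACGTG, the G-box known as a binding sequence of MYC2, and CACATG, a known variant of it, both searched on both strands. The positions are chr1:21235293-21235542 on the minus strand for PAP1, chr1:24763691-24763940 on the plus strand for PAP2, chr2:19476076-19476325 on the plus strand for MYB12 and chr5:20001573-20001822 on the minus strand for MYB111.
PAP1: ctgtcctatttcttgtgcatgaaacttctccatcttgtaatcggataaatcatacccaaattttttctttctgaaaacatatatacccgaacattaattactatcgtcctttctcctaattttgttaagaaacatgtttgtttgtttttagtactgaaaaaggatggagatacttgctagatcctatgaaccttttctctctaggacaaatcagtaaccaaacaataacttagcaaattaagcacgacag
PAP2: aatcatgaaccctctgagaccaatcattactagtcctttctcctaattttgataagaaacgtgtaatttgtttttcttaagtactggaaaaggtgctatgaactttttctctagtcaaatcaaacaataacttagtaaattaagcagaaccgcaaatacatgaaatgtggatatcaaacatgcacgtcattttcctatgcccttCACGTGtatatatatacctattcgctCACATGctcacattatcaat
MYB12: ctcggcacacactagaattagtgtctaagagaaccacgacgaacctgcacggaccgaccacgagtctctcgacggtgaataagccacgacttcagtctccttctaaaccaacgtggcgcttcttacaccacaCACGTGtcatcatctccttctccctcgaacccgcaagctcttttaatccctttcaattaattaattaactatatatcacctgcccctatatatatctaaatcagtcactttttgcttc
MYB111: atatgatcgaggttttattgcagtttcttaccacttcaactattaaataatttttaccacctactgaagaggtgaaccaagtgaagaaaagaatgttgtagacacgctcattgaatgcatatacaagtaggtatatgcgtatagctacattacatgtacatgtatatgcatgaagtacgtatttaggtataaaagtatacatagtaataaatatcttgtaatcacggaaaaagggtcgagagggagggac
PAP2 held 1 CACGTG at 46 bases before the start and 1 CACATG at 20 bases, and MYB12 held 1 CACGTG at 118 bases. Neither motif occurs in the windows of PAP1 or MYB111. The longest run shared by PAP1 and PAP2 was 19 bases, gtcctttctcctaattttg, and that shared by MYB12 and MYB111 was 7 bases.

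Over all 10 regulators, CACGTG was found in the 250-base window of 2 (PAP2 and MYB12), against 6.49% of 27443 protein-coding genes, and CACATG in that of 1 (PAP2), against 11.1%. In 1000 bases, CACGTG was found in 3 of 10 (PAP2, TT8 and MYB12), against 14.8% of genes, and CACATG in 4 of 10 (PAP2, GL3, TTG1 and MYB12), against 37.7%. MYB12 carried 4 copies of CACGTG, at 493, 473, 339 and 118 bases before its start, and TT8 carried 1 at 915 bases. The regulators with CACGTG include 1 that was higher in myc2 and 2 that were lower. A match is only a run of letters, and no binding was measured.

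PAP1 (AT1G56650, chromosome 1, 21233555 to 21235292, minus strand), the main MYB activator of anthocyanin genes in leaves, was at 2.35, 2.78 and 2.29 CPM in the myc2 libraries, against 16.1, 14.8 and 9.02 CPM in the Col-0 libraries. Every myc2 library lay below every Col-0 library, and Col-0 replicate 3 was the lowest of its genotype. The mean was 2.47 ± 0.271 CPM in myc2 and 13.3 ± 3.77 CPM in Col-0 (SD, n = 3 each), a log2 fold change of −2.42 (SE 0.223, 95% interval −2.91 to −1.92, edgeR adjusted p = 1.69e-05). Replicate 3 stood 0.78 below the other Col-0 libraries on the log2 scale (log2 difference −0.78, edgeR adjusted p = 0.000795), a test that takes the spread from the other libraries. Against replicates 1 and 2 alone the log2 fold change was −2.64, and against replicate 3 alone it was −1.86. Among the anthocyanin enzyme genes, replicate 3 was the lowest Col-0 library for DFR, LDOX and SCPL10, at 48.6, 23.7 and 190 CPM. It was the highest for UGT79B1, 5MAT, 3AT1, 3AT2 and BGLU10, and lay between the others for UGT75C1 and TT19.

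PAP2 (AT1G66390, MYB90, chromosome 1, 24763941 to 24765541, plus strand), a close relative with the same role when overexpressed, went the other way. It was at 2.08, 2.56 and 2.40 CPM in myc2, against 0.981, 1.25 and 0.929 CPM in Col-0, with no overlap. The mean of 2.35 ± 0.245 CPM in myc2 was 2.25-fold that of 1.05 ± 0.174 CPM in Col-0 (log2 fold change 1.17, SE 0.205, 95% interval 0.72 to 1.62, edgeR adjusted p = 0.000938). These levels rest on 55, 70 and 63 reads in myc2 and on 23, 26 and 27 reads in Col-0.

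Per kilobase of exon, PAP1 and PAP2 were at close levels in myc2, with a PAP1 to PAP2 ratio of 1.02, 0.980 and 0.861 in the 3 libraries, against 14.5, 10.5 and 8.62 in Col-0. The mean log2 ratio was −0.07 ± 0.13 in myc2 and 3.45 ± 0.38 in Col-0, a difference of −3.53 (exact permutation test, two-sided, p = 0.10, and 0.15 adjusted over 6 ratios). With 3 libraries against 3, 0.10 is the smallest p this test can give. Summed per kilobase, the pair stood at 4.57 ± 0.447 CPM in myc2 and 13.1 ± 3.49 CPM in Col-0. The coding sequences are 84.3% identical, but no 50-base stretch of PAP1 exons recurs elsewhere in the genome.

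PAP2 has 2 further close relatives next to it on chromosome 1, MYB113 and MYB114, which also activate anthocyanin genes when overexpressed. Both were too low to be tested. MYB113 had 0, 0 and 1 reads in the myc2 libraries, against 7, 5 and 7 reads in the Col-0 libraries, so that the Col-0 level was 20.7 times the myc2 level, with a 95% counting interval of 3.30 to 862 that covers counting error only. MYB114 had 10 reads in myc2 and 9 in Col-0 over all libraries. Of PAP2, 4.44% of the exonic 50-base stretches are shared with MYB114, whose coding sequence is 91.4% identical over the aligned bases, and no source used here says how reads of these stretches were assigned.

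TT8 (AT4G09820, chromosome 4, 6181881 to 6186523, plus strand), the bHLH partner that is itself a target of the complex, was the most reduced of the 3 bHLH genes. Its level was 1.51, 1.32 and 1.18 CPM in myc2, against 4.48, 4.96 and 3.27 CPM in Col-0, and the genotypes did not overlap. The log2 fold change was −1.64 (SE 0.203, 95% interval −2.09 to −1.20, edgeR adjusted p = 7.08e-05), 3.13-fold lower on 31 to 40 reads per myc2 library and 95 to 105 per Col-0 library. As for PAP1, the lowest Col-0 library was replicate 3, but here the runs of Col-0 did not differ past the threshold (log2 difference −0.53, edgeR adjusted p = 0.115).

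GL3 (AT5G41315, chromosome 5, 16529090 to 16533287, plus strand), which drives trichome formation as well as anthocyanin genes, was at 1.89, 1.83 and 1.49 CPM in myc2, against 2.60, 4.19 and 4.06 CPM in Col-0. The lowest Col-0 library, replicate 1, still lay above the highest myc2 library. The mean was 1.74 ± 0.219 CPM in myc2 and 3.62 ± 0.883 CPM in Col-0, 2.08-fold lower in myc2 (log2 fold change −1.06, SE 0.210, 95% interval −1.52 to −0.60, edgeR adjusted p = 0.00211). An antisense gene, AT5G06145, overlaps GL3 in the annotation and is not among the counted genes, and without a stated strand setting its reads cannot be told apart from those of GL3.

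EGL3 (AT1G63650, chromosome 1, 23599413 to 23603164, plus strand), the sister gene of GL3 with largely the same functions, was per kilobase of exon the highest of the bHLH genes in both genotypes and had the smallest fold change. It was at 6.40, 4.91 and 5.53 CPM in myc2, against 8.45, 8.10 and 7.47 CPM in Col-0. The genotypes did not overlap, and the level was 1.42-fold lower in myc2 (log2 fold change −0.51, SE 0.129, 95% interval −0.79 to −0.23, edgeR adjusted p = 0.0088).

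The ratio of TT8 to EGL3 per kilobase had a mean log2 of −1.67 ± 0.16 in myc2 and −0.55 ± 0.24 in Col-0, a difference of −1.12 (exact permutation test, two-sided, p = 0.10, the smallest possible, and 0.15 adjusted over 6 ratios). That of GL3 to EGL3 differed by −0.51, with means of −1.73 ± 0.24 in myc2 and −1.22 ± 0.45 in Col-0, and its libraries overlapped (exact permutation test, two-sided, p = 0.20, adjusted 0.20). Summed per kilobase, the 3 bHLH genes stood at 3.45 ± 0.387 CPM in myc2 and 6.51 ± 0.572 CPM in Col-0.

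Because GL3 and EGL3 act in trichomes, the trichome genes are given beside them. Of 10 trichome and seed coat genes, 4 were high enough to be tested, with a median log2 fold change of −0.63. Of these, 3 were lower in myc2 and none higher, against 18.7% and 17.6% of all tested genes. TTG2, a WRKY factor downstream of the complex, was 2.10-fold lower (edgeR adjusted p = 0.00028). GL2, the homeodomain factor of trichome growth, was 1.57-fold lower, and MYB23, a MYB factor of trichome branching, 1.52-fold lower. The GL2 gene overlaps the far more abundant AT1G79850 on the other strand. That gene had 12240 reads in myc2 and 13750 in Col-0, against 819 and 1184 for GL2. GL1, the MYB factor that starts trichomes, was at 2.08 ± 0.449 CPM in myc2 and 2.42 ± 0.471 CPM in Col-0 and did not pass (edgeR adjusted p = 0.452). The summed level of the list was 18.8 to 21.5 CPM in myc2 and 32.5 to 33.3 CPM in Col-0, and the seed coat gene TT1 had 0 reads throughout. The part of the trichome difference in the GL3 and EGL3 results was not tested.

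TTG1 (AT5G24520, chromosome 5, 8370317 to 8372847, minus strand), the WD40 protein shared by all these complexes, was at 26.3, 28.6 and 25.5 CPM in myc2, against 22.4, 21.8 and 23.6 CPM in Col-0. The myc2 libraries lay above the Col-0 libraries by a narrow margin, 1.18-fold on average (log2 fold change 0.24, SE 0.0811, 95% interval 0.07 to 0.42, edgeR adjusted p = 0.0348). The call was lost with DESeq2 (adjusted p = 0.0754) and on leaving out any library other than Col-0 replicate 3, with edgeR adjusted p of 0.0577 to 0.152.

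MYBL2 (AT1G71030, chromosome 1, 26795052 to 26796532, minus strand), the repressor of the group, overlapped fully. Its level was 2.46, 3.84 and 3.20 CPM in myc2, against 3.46, 2.70 and 3.79 CPM in Col-0 (log2 fold change −0.08, SE 0.192, edgeR adjusted p = 0.791). The 95% interval allows myc2 levels between 0.709 and 1.27 times that of Col-0. With PAP1 lower, the MYBL2 to PAP1 ratio per kilobase was 0.833, 1.10 and 1.11 in myc2, against 0.172, 0.146 and 0.335 in Col-0. The log2 difference of that ratio was 2.31 (exact permutation test, two-sided, p = 0.10, the smallest possible, and 0.15 adjusted over 6 ratios).

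**Figure D2:**
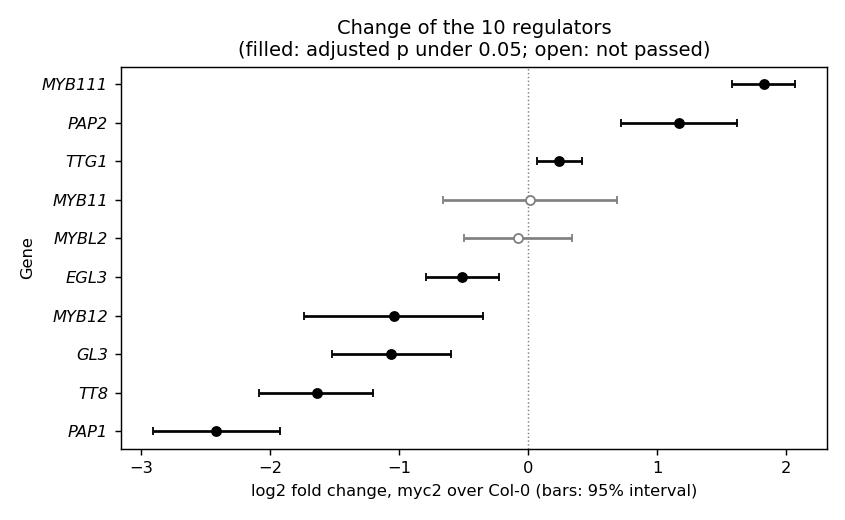
Log2 fold change of each regulator, myc2 over Col-0, with its 95% interval. Filled points passed an adjusted p of 0.05 and open points did not, and the values run between 1.83 for MYB111 and −2.42 for PAP1.

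MYB111 (AT5G49330, chromosome 5, 19998823 to 20001572, minus strand), a flavonol activator best known from cotyledons, had the highest log2 fold change of the group. It was at 14.8, 14.9 and 16.0 CPM in myc2, against 4.65, 4.39 and 3.89 CPM in Col-0, with a wide gap between the genotypes and little spread within each. The mean of 15.2 ± 0.690 CPM in myc2 was 3.55-fold that of 4.31 ± 0.386 CPM in Col-0 (SD, n = 3 each; log2 fold change 1.83, SE 0.113, 95% interval 1.58 to 2.07, edgeR adjusted p = 1.99e-07). The Col-0 runs did not differ past the threshold (log2 difference −0.22, edgeR adjusted p = 0.496).

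MYB12 (AT2G47460, chromosome 2, 19476326 to 19479597, plus strand), a flavonol activator best known from roots, was lower. It was at 0.757, 0.659 and 0.343 CPM in myc2, against 1.54, 0.964 and 1.14 CPM in Col-0, without overlap. These are 20, 18 and 9 reads in myc2 and 36, 20 and 33 reads in Col-0, and the log2 fold change of −1.04 has an SE of 0.319 and a 95% interval of −1.74 to −0.35 (edgeR adjusted p = 0.0236). The call was lost with DESeq2 (adjusted p = 0.0595) and without myc2 replicate 2, myc2 replicate 3 or Col-0 replicate 1 (edgeR adjusted p = 0.0545, 0.0961 and 0.0882), and the level was lower in myc2 in each of these fits.

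MYB11 (AT3G62610, chromosome 3, 23154630 to 23156585, plus strand), the third flavonol activator, was near the limit of the data. It had 14, 16 and 23 reads in myc2 and 15, 16 and 17 reads in Col-0, or 0.530, 0.586 and 0.876 CPM against 0.640, 0.771 and 0.585 CPM. The libraries overlapped (log2 fold change 0.01, SE 0.308, edgeR adjusted p = 0.982), and the 95% interval leaves room for myc2 levels between 0.632 and 1.61 times that of Col-0. AT3G62615, an annotated antisense gene that is not among the counted genes, overlaps it.

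The 3 flavonol regulators thus had 1 member higher, 1 lower and 1 that did not pass. Per kilobase, MYB111 was at 18.5, 21.4 and 43.0 times the MYB12 level in the myc2 libraries, against 2.91, 4.33 and 3.29 times in the Col-0 libraries. The mean log2 ratio was 4.69 ± 0.65 in myc2 and 1.79 ± 0.29 in Col-0, a difference of 2.89 (exact permutation test, two-sided, p = 0.10, the smallest possible, and 0.15 adjusted over 6 ratios). The MYB11 to MYB12 ratio overlapped between genotypes, with mean log2 values of 0.42 ± 0.96 in myc2 and −0.62 ± 0.47 in Col-0 (difference 1.04, exact permutation test, two-sided, p = 0.20, adjusted 0.20). Summed per kilobase, the 3 genes stood at 10.2 ± 0.423 CPM in myc2 and 3.89 ± 0.381 CPM in Col-0, most of it MYB111. The coding sequence of MYB12 is 76.7% identical to that of MYB11 and 68.6% to that of MYB111, and no 50-base exonic stretch of the 3 recurs elsewhere in the genome.

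**Figure D3:**
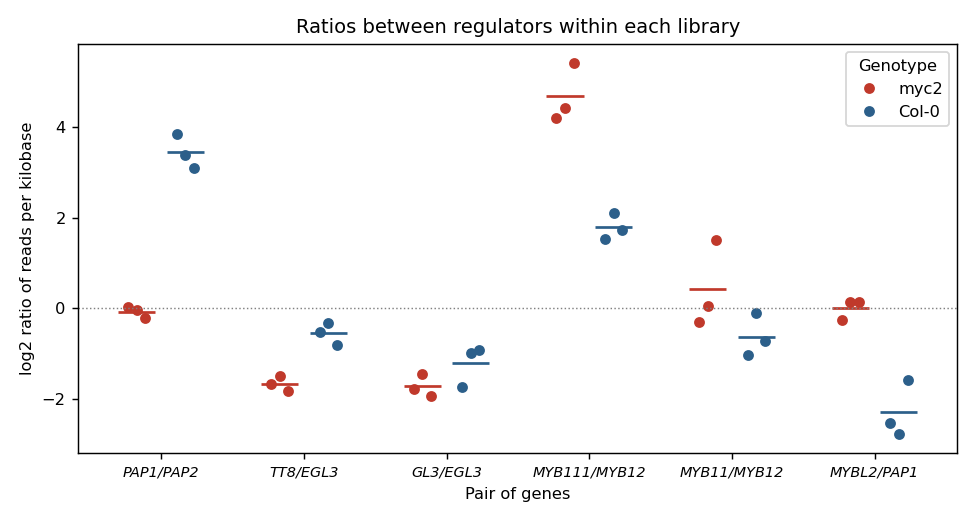
Log2 ratio of reads per kilobase of exon between pairs of regulators in each library, myc2 in red left of Col-0 in blue, with a line at each genotype mean. PAP1/PAP2 lies near 0 in myc2 and at 3.11 to 3.86 in Col-0, and MYB111/MYB12 lies at 4.21 to 5.43 in myc2 and at 1.54 to 2.11 in Col-0.

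These shifts changed the order of the 10 levels per kilobase of exon. In myc2, TTG1 led with 14.2 CPM per kilobase, followed by MYB111 with 9.34. PAP2, MYBL2, PAP1 and EGL3 came next, between 2.34 and 2.14 CPM per kilobase, and neighbours among them overlapped. TT8, GL3, MYB11 and MYB12 made up the lowest set, between 0.667 and 0.370 CPM per kilobase, again with neighbours overlapping. In Col-0, TTG1 and PAP1 led together at 12.0 CPM per kilobase each and overlapped, and EGL3 was next with 3.06. MYB111, MYBL2 and TT8 followed at 2.64, 2.38 and 2.11 CPM per kilobase, with neighbours overlapping. GL3, PAP2 and MYB12 stood at 1.34, 1.05 and 0.765 CPM per kilobase, again with neighbours overlapping, and MYB11 was lowest at 0.484.

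The enzymes of the pathway show how its 2 branches stood in the same libraries. All 10 anthocyanin branch genes were lower in myc2, against 18.7% of all tested genes, with a median log2 fold change of −1.64. DFR, the reductase that commits the pathway to anthocyanins, was at 12.6, 11.1 and 10.7 CPM in myc2, against 61.0, 57.0 and 48.6 CPM in Col-0, 4.83-fold lower (edgeR adjusted p = 1.56e-08). LDOX, which acts after it, was at 5.80 ± 0.591 CPM in myc2 and 28.8 ± 4.52 CPM in Col-0. TT19, a glutathione transferase needed to bring anthocyanins to the vacuole, was at 10.7 ± 0.603 CPM in myc2 and 40.6 ± 1.55 CPM in Col-0, but its gene overlaps the far more abundant AT5G17230 on the other strand. SCPL10, an anthocyanin acyltransferase, was at 79.2 ± 1.31 CPM in myc2 and 202 ± 11.7 CPM in Col-0.

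Of the 12 early and flavonol branch genes, 11 could be tested, with a median log2 fold change of −0.50. In myc2, 7 were lower, 1 was higher and 3 did not pass, while 18.7% of all tested genes were lower and 17.6% higher. CHS, chalcone synthase at the entry of the pathway, was at 320, 310 and 320 CPM in myc2, against 572, 594 and 682 CPM in Col-0, 1.95-fold lower (edgeR adjusted p = 8.23e-07). CHI, chalcone isomerase, was 1.96-fold lower, and CHIL, its non-catalytic relative, 2.05-fold lower. FLS1, flavonol synthase, was at 97.2 ± 2.86 CPM in myc2 and 181 ± 13.8 CPM in Col-0. The early enzyme genes CHS and CHI and the flavonol gene FLS1 were thus lower in the libraries in which MYB111 was higher. UGT78D2, a glucosyltransferase that serves both flavonols and anthocyanins, was the single member higher in myc2, 1.24-fold. UGT78D3, UGT91A1 and UGT84A1 did not pass.

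**Figure D4:**
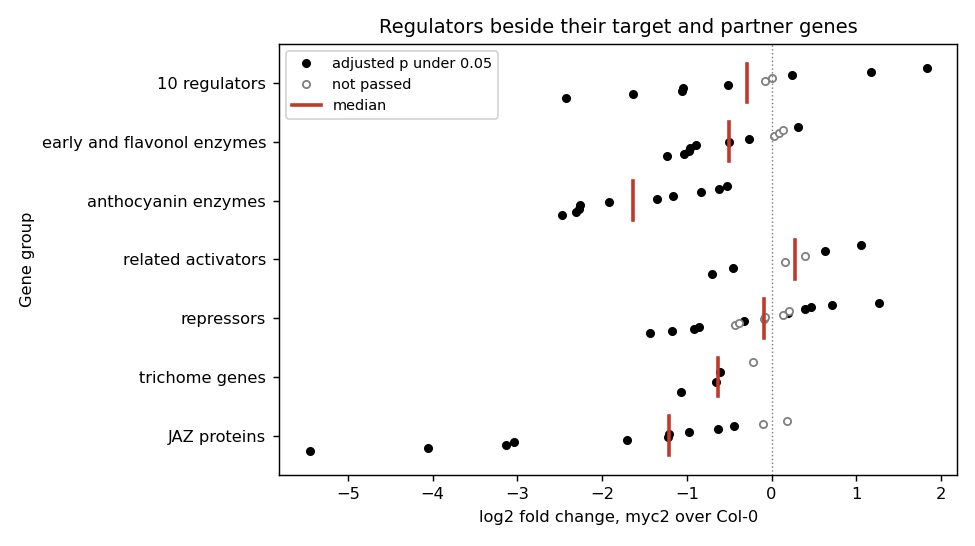
Log2 fold change of the 10 regulators and of 6 related gene lists, myc2 over Col-0, with 1 point per tested gene and a red line at the median. The anthocyanin enzymes all lie below 0 with a median of −1.64, while the regulators and the repressors lie on both sides of 0.

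Among 8 further activators, 6 could be tested, with a median log2 fold change of 0.28. HY5, the bZIP factor that promotes the pathway in light, was at 47.0, 47.5 and 50.8 CPM in myc2, against 24.9, 25.5 and 19.8 CPM in Col-0, 2.07-fold higher (edgeR adjusted p = 6.5e-06). BBX21, a B-box protein that works with HY5, was 1.54-fold higher. PIF3, a bHLH factor of light signalling, was 1.63-fold lower, and MYC1, a bHLH gene of the GL3 clade, 1.37-fold lower. HYH, the homologue of HY5, and BBX22 did not pass (edgeR adjusted p = 0.505 and 0.118).

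Of 16 repressors of the pathway, 5 were higher, 5 lower and 6 did not pass, with a median log2 fold change of −0.08. Over all tested genes, 17.6% were higher and 18.7% lower. The LOB-domain genes LBD37, LBD38 and LBD39, nitrogen-responsive repressors of anthocyanin regulators, were all lower, by 1.82-, 2.27- and 2.69-fold. ETC3, a single-repeat MYB that competes for the bHLH partner, was 1.89-fold lower, and KFB-CHS, an F-box protein that marks CHS for turnover, 1.25-fold lower. MYB4, a subgroup 4 MYB repressor of phenylpropanoid genes, was at 42.8, 45.5 and 44.9 CPM in myc2, against 21.8, 20.1 and 13.5 CPM in Col-0, 2.42-fold higher (edgeR adjusted p = 0.00012). Against Col-0 replicates 1 and 2 the log2 fold change of MYB4 was 1.08, and against replicate 3 it was 1.72. Its relatives MYB3 and MYB32 were 1.63- and 1.38-fold higher. SPA1 and COP1, which form the ubiquitin ligase that removes HY5 and PAP proteins in the dark, were 1.31- and 1.14-fold higher.

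Of the 12 JAZ genes, 10 were lower in myc2, against 18.7% of all tested genes, and the median log2 fold change was −1.21. JAZ4 and JAZ11 did not pass. JAZ1, one of the JAZ proteins known to bind TT8, GL3, EGL3 and PAP1, was at 9.65 ± 0.386 CPM in myc2 and 84.6 ± 11.5 CPM in Col-0 (edgeR adjusted p = 1.6e-09). JAZ5 was 8.25-fold lower, JAZ3 3.24-fold and JAZ7 43.7-fold.

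The genes most like the 2 extreme regulators were found over the 6 libraries among 13998 genes of at least 5 CPM on average, by the Euclidean distance of log2 CPM centred on each gene's mean. For MYB111 they were HSFA7A, a heat shock factor (distance 0.214), ERD5, a proline dehydrogenase (0.246), and CCS, the copper chaperone of superoxide dismutase (0.269). For PAP1 they were PR1, a salicylic acid marker (0.386), LDOX (0.408) and NUDT4, a Nudix hydrolase gene (0.423). LDOX is the anthocyanin enzyme gene given above, and like PAP1 it was lowest among the Col-0 libraries in replicate 3. The libraries share genotype and run, so this likeness is a description of 6 points.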

How the data were processed

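Poly(A) RNA of 3 myc2 and 3 Col-0 shoot samples was sequenced from TruSeq libraries, and groups were taken from the labels. The submitters' processing notes name the tools fastp, HISAT2, StringTie and SAMtools and the build TAIR10. Their versions, the read counter and its strand setting were not given in the sources used, which leaves reads of overlapping or near-identical genes uncertain. The authors deposited raw counts of reads for each gene in each library, as whole numbers without normalization. A further table with the authors' own fold changes and p-values was not used.

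Low genes were removed with filterByExpr and library sizes were scaled by TMM (trimmed mean of M-values). The test was the quasi-likelihood F-test in edgeR 4.0.16 (robust fit, R 4.3.3). Genotype was the only term, and genes with a Benjamini-Hochberg adjusted p under 0.05 over 18961 genes are called changed. CPM values use TMM library sizes, SDs are over 3 libraries, and the biological coefficient of variation was 8.44%. Of the 28775 genes counted, 5087 had 0 reads in every library. Replicates of a genotype differed by more than counting noise (chi-square of 2.33 to 17.8 per degree of freedom). Ratios between regulators used counts per kilobase of merged exon with 0.5 count added and an exact permutation test. Sums per kilobase were chosen after the values were seen and carry no test. The calculations were tested on simulated data. Coordinates, exons and upstream sequences came from the RefSeq annotation of TAIR10.1 with Biopython 1.88, matched by gene identifier, and coding identity was taken over the aligned bases of pairwise alignments.

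The 10 regulators, the 10 gene lists and the tests were chosen with earlier results of these data known. The text names all 10 regulators, MYC2, MYB113 and MYB114, up to 4 tested genes per list with the smallest adjusted p, each gene of a count of 5 or fewer, and the 3 genes nearest in pattern to the regulators with the highest and the lowest log2 fold change. Genes of the marker lists named beyond this (PYK10, RHD6 and TT1) were picked with their values in view. The remaining anthocyanin enzyme genes are named only for the place of Col-0 replicate 3 among the Col-0 libraries. The alternatives were DESeq2 1.42.0, limma-voom (limma 3.58.1), RLE or upper-quartile scaling, no low-count filter, a stricter one (5 CPM in 3 libraries), a replicate block, either Col-0 run alone and leaving out each library.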

Additional observations from a re-analysis of the deposited data

How the results depend on the processing

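PAP1, PAP2, TT8, GL3, EGL3 and MYB111 kept their direction and their call in each alternative fit that could test them, with log2 fold changes of −2.64 to −1.86 for PAP1, 1.08 to 1.33 for PAP2, −1.81 to −1.29 for TT8, −1.24 to −0.95 for GL3, −0.62 to −0.41 for EGL3 and 1.75 to 1.97 for MYB111. For EGL3 the highest adjusted p among these fits was 0.0497. Under a filter of 5 CPM in 3 libraries, PAP1, EGL3, TTG1 and MYB111 were the only regulators among the 14219 genes tested. All 4 changed, 2 of them lower, beside 5570 of the 14219 genes. PAP1 passed this filter only through its Col-0 libraries, and MYB111 only through its myc2 libraries. The calls of PAP1 and MYB111 there thus add no support. DESeq2 called 6 of the 10 regulators, beside 5958 of 23688 genes in all. In the comparison with Col-0 replicate 3 alone, the log2 fold change was 0.18 for TTG1 and −0.95 for MYB12. Leaving out 1 library gave 6 to 8 changed regulators, 2 to 3 of them higher and 4 to 5 lower, and 5032 to 8417 changed genes in all. Of the 4 shoot markers, 2 changed in the main fit, and 0 to 3 did on leaving out 1 library. The log2 fold change of MYBL2 changed sign to 0.04 against Col-0 replicates 1 and 2, and lay between −0.24 and 0.08 on leaving out 1 library. That of MYB11 changed sign to −0.001 with DESeq2, −0.02 with limma-voom and −0.08 against Col-0 replicates 1 and 2, and lay between −0.23 and 0.15 on leaving out 1 library. Neither gene passed the test in any of these fits, and the cause of the sign changes was not tested. Same-numbered libraries did not deviate together (correlations −0.0236, 0.0084 and 0.0211), so these values give no sign of pairing by number. Whether same-numbered plants were grown or harvested together was not tested. The fit with the replicate block called 7 regulators and 6639 genes in all, and TTG1 lost its call (adjusted p = 0.0609). The median log2 fold change of all genes was 0.006 with RLE scaling and 0.013 with upper-quartile scaling, beside 0.012 with TMM.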

Other observations

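F3H, flavanone 3-hydroxylase, stands between CHI and DFR in the pathway and had only 10 reads in the myc2 libraries and 5 in the Col-0 libraries, while CHS had 25323 reads in myc2 and 45557 in Col-0. An antisense gene, AT3G51238, overlaps it and had 1 read in myc2 and 4 in Col-0. Whether F3H was not expressed or its reads were not counted was not tested, so its level is not read here. MYB113, left out of the main test for low counts, had a log2 fold change of −3.92 in the fit without a filter on low counts (edgeR adjusted p = 0.00469), a value that depends on the prior count. It was the single relative of PAP1 and PAP2 with lower counts in each myc2 library than in any Col-0 library. UGT78D3 and UGT91A1, glycosyltransferases of flavonols, were both under 1 CPM in every library, and for UGT84A1 an overlapping gene, AT4G15475, had more reads than UGT84A1 itself (1738 against 319 in myc2 and 1309 against 268 in Col-0).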
